A study of Mus musculus with 8 samples.

Results

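Genes of lymphoid follicle homing and of the HLA-DO type were followed in mouse colon tumours: Cxcl13, Cxcr5, Btla, Fcmr, H2-Oa and H2-Ob. They are 6 of the 1428 genes in the authors' deposited table, matched by gene name, and 6 of 6 were found. The members were chosen by earlier results of the same comparison, in which every listed gene has an unadjusted p below 0.05 and these genes read higher in knockout tumours. Their levels in knockout against wild-type tumours are therefore given as a description, with no test. The p-value nearest to that limit among them was 0.0321, for Cxcl13, and genes beyond the limit were not analysed here.

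RNA sequencing covered 4 libraries of knockout (KO) tumours, titled miR-29ab1Vilin-KO, and 4 libraries of wild-type (WT) tumours, titled Wildtype, all from C57BL/6N mice. In the KO mice the miR-29ab1 locus was disrupted in the intestinal epithelium, with the villin name in the title, so lymphocytes and stroma in a KO tumour are not the cells that the disruption was aimed at. All tumours were raised by the carcinogen azoxymethane (AOM) together with dextran sodium sulfate (DSS), which injures the colon lining. The sources used here do not give age, sex, the controls' floxed or Cre alleles or whether each library came from its own animal. The spread between libraries may therefore be technical. The values are gene counts divided by a size factor per library (normalized counts), and the listed genes hold 1202677 to 2180787 reads per library. The depth of the whole libraries is unknown, and no row of the table is named for a miR-29 gene, so the disruption was not checked here.

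Lymphoid follicles are clusters of B cells held together by stromal cells. In the mouse colon they occur as colonic patches and isolated follicles beneath the epithelium. Cxcl13 is the chemokine that follicle stroma secretes, and Cxcr5 is its receptor on B cells and on follicular helper T cells. Btla is an inhibitory receptor of B and T cells that binds the TNF receptor family member Tnfrsf14. Fcmr is the receptor for the Fc part of IgM. H2-Oa and H2-Ob encode the alpha and beta chains of H2-O, the mouse counterpart of HLA-DO. H2-O is found chiefly in B cells, where it restrains H2-DM, the helper that loads peptides onto MHC class II.

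The H2-O pair is shown first by its sequence, because both chains carry a like arrangement of the motifs known from MHC class II promoters. Both promoters, from RefSeq on build GRCm38.p6, run from 250 bases before the start of the gene to 50 bases after it. In capitals are a relaxed X box (CCNAGCAAC) followed by a relaxed Y box (TGATTGG). H2-Oa lies at chr17:34092129-34092428 on the plus strand and H2-Ob at chr17:34238655-34238954 on the plus strand.
H2-Oa: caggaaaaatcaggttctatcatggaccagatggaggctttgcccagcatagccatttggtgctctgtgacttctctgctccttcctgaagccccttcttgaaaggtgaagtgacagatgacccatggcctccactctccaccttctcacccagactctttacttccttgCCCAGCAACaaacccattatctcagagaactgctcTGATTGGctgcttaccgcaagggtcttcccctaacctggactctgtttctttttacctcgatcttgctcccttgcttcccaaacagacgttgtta
H2-Ob: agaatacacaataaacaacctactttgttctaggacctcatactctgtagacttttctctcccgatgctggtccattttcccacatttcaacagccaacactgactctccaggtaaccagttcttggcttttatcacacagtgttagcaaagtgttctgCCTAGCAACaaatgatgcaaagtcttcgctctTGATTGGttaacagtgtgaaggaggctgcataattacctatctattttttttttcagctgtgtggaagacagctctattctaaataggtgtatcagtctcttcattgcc

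In H2-Oa the pair spans bases -80 to -39 from the start, with 26 bases between the boxes. In H2-Ob it spans bases -91 to -53, with 23 bases between them. Of 32851 tabled promoters of the same length, 11 held such a pair with 10 to 30 bases between the boxes on either strand (0.0335%), and these 11 belong to 8 genes. The relaxed letters were chosen after the H2-Oa and H2-Ob promoters had been read, so their presence there was fixed by the choice. The 7 tabled promoters of other genes from the MHC class II list, its regulators left out, did not hold the pair.

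Stricter motifs, 6 in number, were searched on both strands of the promoters of 5 of the 6 genes (Cxcr5 was not among them). The X box core CCTAGCAAC was found in H2-Ob from base -91 and is held by 0.804% of all promoters. The Y box CTGATTGG was found in H2-Oa from base -46 and is held by 4.10% of all promoters. The PU.1 motif GAGGAAGT, named for a factor of B cells and myeloid cells, was found in Btla from base -18 and is held by 3.20% of all promoters. The NF-kB motif was found in Cxcl13, Fcmr and H2-Oa and is held by 20.7% of all promoters. In Fcmr the same bases matched on both strands. The octamer ATGCAAAT, held by 1.74% of all promoters, and the palindromic EBF motif, held by 0.904%, had no match in these 5 windows.

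The microRNAs of the disrupted locus share 1 seed, bases 2 to 8, printed in capitals. They are shown because the disruption is aimed at them, and their sequences are from RefSeq on build GRCm38.p6, with miR-29a-3p at chr6:31062673-31062694 and the copy of miR-29b-3p at this locus at chr6:31063025-31063047, both on the minus strand.
mmu-miR-29a-3p: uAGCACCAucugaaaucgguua
mmu-miR-29b-3p: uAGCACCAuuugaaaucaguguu

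The seed match TGGTGCT was searched in the longest 3′ untranslated region (UTR) of each gene in GENCODE M21, also on GRCm38. It occurred in 1 of the 6 genes, Btla, whose 3′ UTR has 2295 bases. The share among the 1310 genes with a 3′ UTR within 10% of that length was 23.2%, and among all 20979 genes searched it was 13.0%. The Btla match lies at chr16:45250705-45250727 on the plus strand and is shown with its flanks, the match in capitals.
Btla: ctctgtgcTGGTGCTgcgtctta

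Cxcl13, the ligand, was the most abundant of the 6 per length in both groups. It read 29.9, 160.7, 55.2 and 300.4 normalized counts in KO replicates 1 to 4, against 41.8, 68.8, 69.8 and 28.3 in WT replicates 1 to 4. KO replicates 2 and 4 lay above every WT library, while KO replicates 1 and 3 lay within the WT range. The mean was 137 ± 123 in KO and 52.2 ± 20.5 in WT (SD, n = 4 each), and the KO over WT ratio of means was 2.62, or 1.57 without KO replicate 4. Its DESeq2 adjusted p was 0.686 at a log2 fold change of 1.39, both from the authors' deposited table.

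Cxcr5, the receptor of that chemokine, read 3.86, 34.3, 5.34 and 126 normalized counts in KO replicates 1 to 4, against 4.86, 0, 6.07 and 3.04 in WT replicates 1 to 4. Those WT values rest on 5, 0, 6 and 3 reads, and a library with 0 reads allows up to 3. KO replicates 2 and 4 again stood above every WT library, and KO replicates 1 and 3 lay between WT libraries. The mean was 42.4 ± 57.6 in KO and 3.49 ± 2.64 in WT (SD, n = 4 each), a ratio of 12.2, or 4.15 without KO replicate 4. The authors' deposited table lists 3.60 as its log2 fold change, with a DESeq2 adjusted p of 0.284.

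Per kilobase of gene length, Cxcl13 exceeded Cxcr5 in all 8 libraries, Cxcr5 being at 0 in WT replicate 2. The ratio of ligand to receptor level per kilobase was 19.0, 11.5, 25.4 and 5.84 in KO replicates 1 to 4, against 21.1, 28.2 and 22.9 in WT replicates 1, 3 and 4. KO replicates 2 and 4, where both genes were highest, thus had the lowest ratios of ligand to receptor.

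Btla read 12.5, 42.9, 4.45 and 149 normalized counts in KO replicates 1 to 4, against 9.73, 11.3, 4.05 and 8.09 in WT replicates 1 to 4. Here KO replicates 1, 2 and 4 lay above every WT library, replicate 1 by little, and KO replicate 3 was close to the lowest WT library. The mean was 52.1 ± 66.5 in KO and 8.29 ± 3.12 in WT (SD, n = 4 each). The ratio of means was 6.29, or 2.41 without KO replicate 4. For Btla the authors' deposited table has a DESeq2 adjusted p of 0.424 at a log2 fold change of 2.65. No gene of 12 fixed as its ligands and related receptors, such as Tnfrsf14, Cd160 or Pdcd1, was in the table.

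Fcmr, the IgM receptor, read 2.89, 25.7, 4.45 and 132 normalized counts in KO replicates 1 to 4, against 1.95, 0, 1.01 and 5.06 in WT replicates 1 to 4. The 4 WT libraries held 8 reads in all and the 4 KO libraries 167 reads. KO replicates 1 and 3 lay below WT replicate 4. The mean was 41.3 ± 61.4 in KO and 2.00 ± 2.19 in WT (SD, n = 4 each), a ratio of 20.6. Without KO replicate 4 the ratio was 5.50, and without WT replicate 4 it was 41.9. Fcmr had the highest log2 fold change of the 6 (4.36) and a DESeq2 adjusted p of 0.198, per the authors' deposited table.

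**Figure D1:**
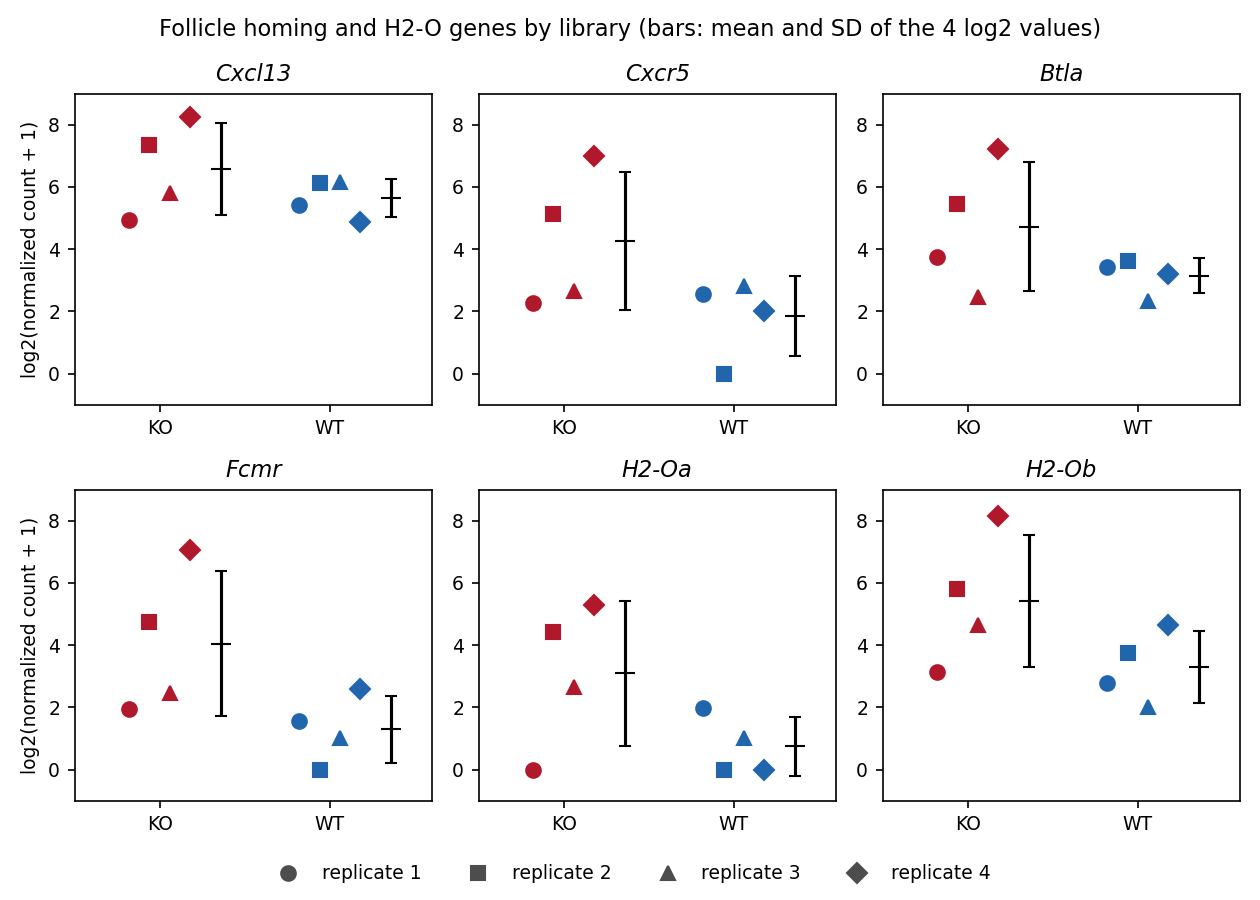
Level of each gene in each library as log2(normalized count + 1), with KO libraries left and WT libraries right, the marker shape giving the replicate number and the black bars the mean and SD of the 4 log2 values. In all 6 genes KO replicates 4 and 2 are the highest and second highest of the 8 libraries, and in each gene at least 1 KO library lies below the highest WT library.

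H2-Ob, the beta chain of H2-O, read 7.71, 54.7, 24.0 and 283 normalized counts in KO replicates 1 to 4, against 5.84, 12.3, 3.03 and 24.3 in WT replicates 1 to 4. KO replicate 3 fell just short of WT replicate 4, and KO replicate 1 lay below WT replicate 2. The mean was 92.3 ± 128 in KO and 11.4 ± 9.45 in WT (SD, n = 4 each), a ratio of 8.12. The ratio was 2.53 without KO replicate 4 and 13.1 without WT replicate 4. For the beta chain the authors' deposited table has 3.02 as log2 fold change and 0.316 as DESeq2 adjusted p.

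H2-Oa, the alpha chain, was the scarcest of the 6, with 64 reads over the 4 KO libraries and 4 reads over the 4 WT libraries. It read 0, 20.4, 5.34 and 38.2 normalized counts in KO replicates 1 to 4, against 2.92, 0, 1.01 and 0 in WT replicates 1 to 4. KO replicates 2, 3 and 4 lay above every WT library, and KO replicate 1 had no reads. The mean was 16.0 ± 17.1 in KO and 0.982 ± 1.38 in WT (SD, n = 4 each), a ratio of 16.3. That ratio was 8.72 without KO replicate 4 and 47.4 without WT replicate 1. The alpha chain had a DESeq2 adjusted p of 0.507 in the authors' deposited table, at a log2 fold change of 4.01.

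Both chains are needed to form H2-O, so their levels were set side by side per kilobase. H2-Oa over H2-Ob was 0, 0.894, 0.533 and 0.324 in KO replicates 1 to 4, against 1.20, 0, 0.800 and 0 in WT replicates 1 to 4. The ratio overlapped between the groups, and in WT it rests on at most 3 reads of H2-Oa in a library. By the table's own coordinates, given with C57BL/6NJ gene identifiers, H2-Oa lies on chromosome 17 from 35368377 to 35371271 and H2-Ob from 35528840 to 35535828. Cxcl13 lies there on chromosome 5 from 101353349 to 101357466, Cxcr5 on chromosome 9 from 44279301 to 44326121, Btla on chromosome 16 from 44992988 to 45023506 and Fcmr on chromosome 1 from 139267276 to 139282244. All 6 are annotated as protein-coding genes, and no other listed gene overlaps any of them.

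Across the 6 genes, 0 of 6 had an adjusted p below 0.05 in the authors' deposited table, against 0.42% of all 1428 listed genes called higher at that threshold. Unadjusted, all 6 lay below 0.05, as the table requires. In refits of the recovered reads with the DESeq2, edgeR and limma tools, 0 of 6 passed at the adjusted threshold, while 6, 5 and 1 had an unadjusted p below 0.05. Of all 1428 listed genes, 37 passed in the DESeq2 refit and 0 in the edgeR and limma refits, so the count of 0 is not particular to the 6. None of the 6 had all 4 KO libraries above all 4 WT libraries. Of the 1428 listed genes 342 did (23.9%), and only the 829 genes higher in KO can do so. The 6 were chosen from that group, and with so few genes no conclusion is drawn from 0 of 6. The 6 were all higher in KO, against 58.1% of the listed genes, which the choice of members fixed. The authors' deposited table puts their median log2 fold change at 3.31, beside 0.48 over all listed genes and 0.999 over those higher in KO.

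The spread among KO libraries was wide. The SD of the 4 KO values had a median of 132% of the mean over the 6 genes, beside 35.8% over all listed genes. Among the WT libraries it was 79.4% for the 6 genes, beside 28.7% over all listed genes. All 6 genes had means below the median listed gene, where counting error is larger relative to the mean. The part of counting error in this spread was not tested. KO replicate 4 held between 55.0% of the summed KO level, in Cxcl13, and 80.0%, in Fcmr. It was the highest of the 8 libraries in 6 of 6 genes, against 43.6% of all listed genes and 75.0% (622 of 829) of those higher in KO, the group the 6 were chosen from. KO replicate 2 was second in 6 of 6.

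Library by library, each gene was divided by its WT mean, and the median over the 6 genes was 0.891, 7.50, 1.82 and 30.5 in KO replicates 1 to 4, against 1.07, 0.542, 0.767 and 0.923 in WT replicates 1 to 4. KO replicate 1 therefore lay among the WT libraries, and it exceeded every WT library in 1 gene, Btla. KO replicate 3 also did so in 1 gene, H2-Oa. KO replicates 2 and 4 did so in all 6. With KO replicate 4 left out, the ratios of means ran from 1.57 in Cxcl13 to 8.72 in H2-Oa, and all 6 stayed above 1.

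**Figure D2:**
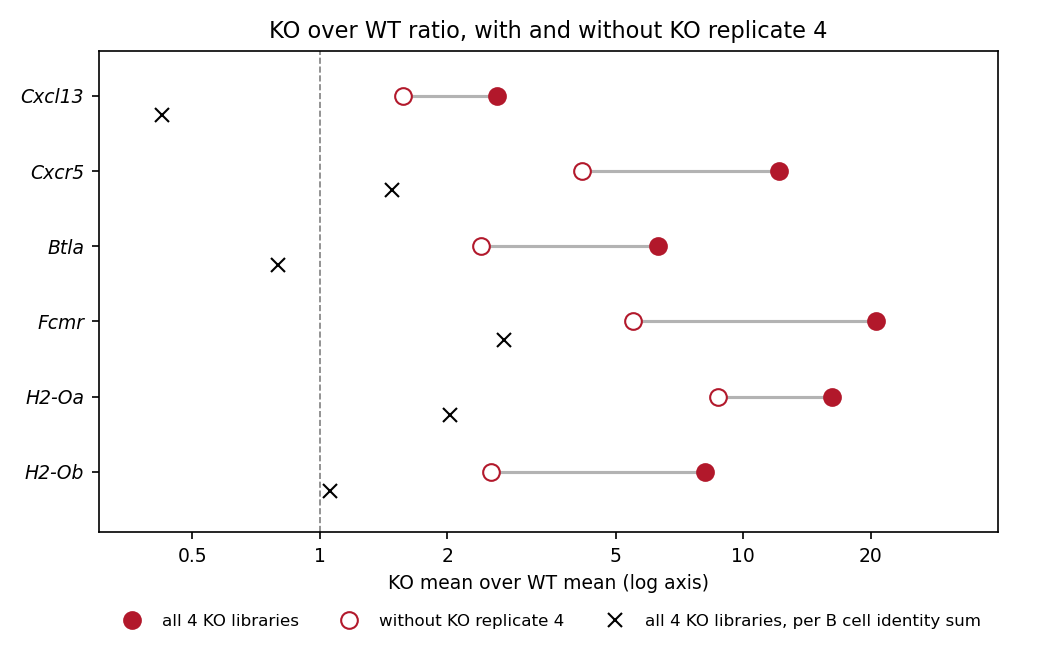
Ratio of the KO mean to the WT mean of each gene on a log axis, with all 4 KO libraries (filled), without KO replicate 4 (open), and with all 4 KO libraries after dividing each library's value by its sum of B cell identity genes (crosses). The filled ratios run from 2.62 to 20.6 and the open ones from 1.57 to 8.72, while the crosses lie between 0.423 and 2.72.

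Per kilobase the order of the levels in KO was Cxcl13 at 119 ± 107 normalized counts, H2-Ob at 29.3 ± 40.7, Fcmr at 23.8 ± 35.4, Btla at 16.0 ± 20.4, Cxcr5 at 15.02 ± 20.4 and H2-Oa at 12.1 ± 13.0 (SD, n = 4). In WT it was Cxcl13 at 45.4 ± 17.8, H2-Ob at 3.61 ± 3.00, Btla at 2.55 ± 0.958, Cxcr5 at 1.24 ± 0.935, Fcmr at 1.15 ± 1.26 and H2-Oa at 0.748 ± 1.05 (SD, n = 4). In every library of both groups Cxcl13 was the highest per kilobase. In WT it lay more than 1 SD above H2-Ob, and Btla lay more than 1 SD above Cxcr5, although not in WT replicate 3. The other neighbours in both orders differed by less than the larger of their SDs, Cxcl13 and H2-Ob in KO among them.

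The summed level of genes that define B cells was highest in the same libraries as the 6 genes. Of 20 genes fixed as the B cell identity list, 15 were in the table, all higher in KO, and 1, the B cell scaffold Bank1, had an adjusted p below 0.05. Their summed level was 314, 1297, 509 and 4179 normalized counts in KO replicates 1 to 4, against 218, 169.5, 254 and 403 in WT replicates 1 to 4. The mean sum was 1575 ± 1787 in KO and 261 ± 101 in WT (SD, n = 4 each), a ratio of 6.03, or 2.71 without KO replicate 4. Only genes with an unadjusted p below 0.05 are listed, so these 15 genes and their sum were selected for a difference between the groups. The order of the KO libraries was the same as for the sum of the 6 genes, with replicate 4 highest, then 2, 3 and 1. In WT the orders differed. The B cell sum was highest in WT replicate 4 and lowest in WT replicate 2. The sum of the 6 genes was highest in WT replicate 2, at 92.5, of which Cxcl13 made up 68.8. Bank1 read 9.64, 52.5, 15.1 and 134 in KO replicates 1 to 4, against 0, 4.11, 3.03 and 4.05 in WT replicates 1 to 4, so its groups did not overlap. That held for 5 of the 15 listed B cell genes, against 342 of the 829 listed genes higher in KO (23.9% of all listed genes). KO replicate 4 was the highest library in 14 of the 15. In bulk tissue, more cells of a type and more RNA per cell cannot be told apart.

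**Figure D3:**
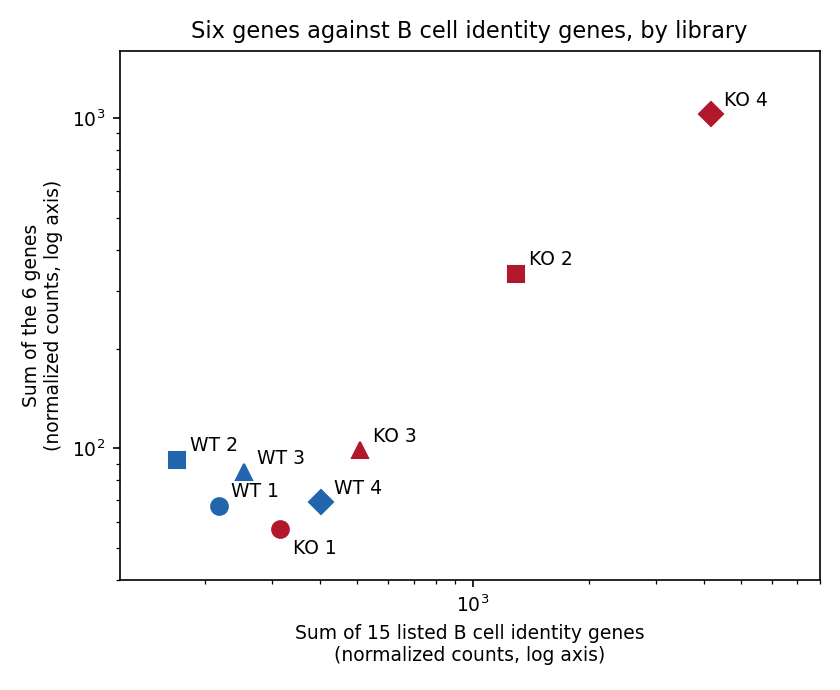
Sum of the 6 genes against the sum of the 15 listed B cell identity genes in each of the 8 libraries, both in normalized counts on log axes, with KO in red and WT in blue. KO replicates 4 and 2 stand apart at the top right, KO replicate 3 lies just above the WT libraries, and KO replicate 1 has the lowest sum of the 6 genes, 56.9.

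Each gene was then expressed per 100 normalized counts of that B cell sum within the same library. On this scale all 6 overlapped between the groups. H2-Ob was at 4.54 ± 1.77 in KO and 4.29 ± 2.83 in WT (SD, n = 4 each, as for the others), with a ratio of 1.06. Btla had 2.93 ± 1.40 in KO, against 3.68 ± 2.36 in WT, the ratio being 0.796. Cxcr5 had 1.99 ± 0.993 in KO, against 1.34 ± 1.16 in WT, the ratio being 1.48. For Fcmr the values were 1.73 ± 1.08 in KO and 0.637 ± 0.551 in WT, and the ratio of 2.72 was 1.98 without KO replicate 4. For H2-Oa they were 0.883 ± 0.653 in KO and 0.434 ± 0.632 in WT, and the ratio of 2.03 was 6.65 without WT replicate 1. Cxcl13, the stromal gene, had the lowest ratio on this scale, 0.423, with 9.98 ± 2.21 in KO and 23.6 ± 14.1 in WT. The B cell sum holds only genes selected for a difference between the groups, and how far that selection shapes these ratios was not tested. The part of B cell content in the levels of the 6 genes was not tested.

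The nearest profiles were sought among 1285 listed genes with a mean of at least 5 normalized counts. The measure was the root mean square gap, over 8 libraries, between a gene's centred log2(normalized count + 1) values and the median profile of the 6 genes. The 8 nearest were Pcdh15, Cd79a, H2-Eb2, Ms4a1, a gene listed without a name as MGP_C57BL6NJ_G0022546, Siglecg, Chat and Cd22, with gaps of 0.39 to 0.58, beside a median gap of 1.54 over the candidates. Of these 8, 3 belong to the B cell identity list: the antigen receptor chain Cd79a, the surface protein Ms4a1 (CD20) and the inhibitory lectin Cd22. Siglecg is a related inhibitory lectin of B cells, H2-Eb2 an MHC class II beta chain, Chat the enzyme that makes acetylcholine, and Pcdh15 a protocadherin best known from inner ear hair cells.

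Cd79a read 33.7, 139, 49.8 and 380 normalized counts in KO replicates 1 to 4, against 23.3, 12.3, 13.1 and 33.4 in WT replicates 1 to 4. H2-Eb2 read 7.71, 52.5, 14.2 and 98.8 in KO replicates 1 to 4, against 5.84, 4.11, 6.07 and 14.2 in WT replicates 1 to 4. Chat read 1.93, 10.7, 0.890 and 39.1 in KO replicates 1 to 4 and was at 0 in the 4 WT libraries. All 3 thus had KO replicate 4 highest and KO replicate 2 second, an order that their choice by likeness to the 6 genes favoured.

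**Figure D4:**
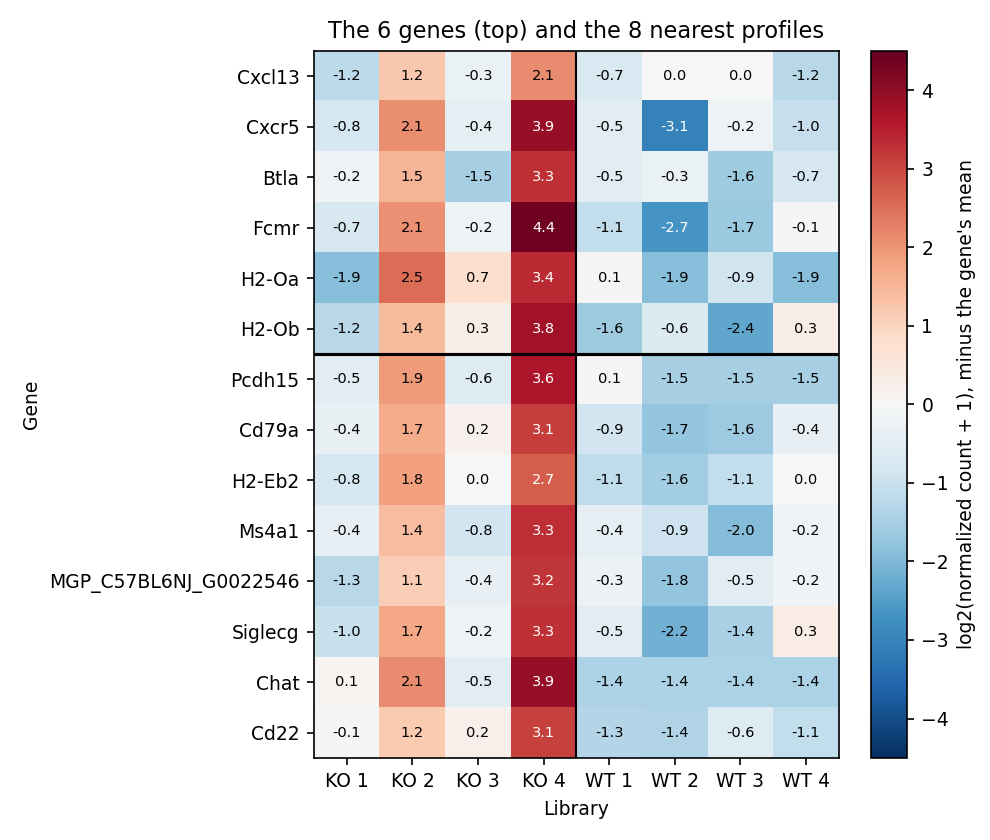
Centred log2(normalized count + 1) of the 6 genes (above the line) and of the 8 genes nearest to their median profile (below it) in the 4 KO libraries (left) and 4 WT libraries (right), red being above and blue below the gene's own mean over 8 libraries. KO replicate 4 is the highest column in every row, at 2.12 for Cxcl13 and up to 4.39 for Fcmr among the 6 genes, and KO replicate 2 is second. For the 8 nearest genes that order is favoured by their choice by likeness.

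Each gene also had a nearest gene of its own among the candidates, which did not include the 6 genes themselves. For Fcmr it was Siglecg, with a gap of 0.53, and for H2-Ob the immunoglobulin variable gene Ighv2-9, with 0.58. For Cxcr5 it was the unnamed gene MGP_C57BL6NJ_G0022546, with 0.72. Btla lay nearest to Dnah5, a dynein heavy chain of motile cilia, with 0.35, H2-Oa to the interleukin 9 receptor Il9r, with 0.59, and Cxcl13 to Apob, the apolipoprotein B gene of enterocytes and liver, with 0.40. Among the 6 genes themselves, Cxcr5 and Fcmr were closest, at 0.68, and Cxcl13 and Fcmr farthest apart, at 1.49. The 2 chains of H2-O lay 1.29 apart.

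Other genes of the follicle, from lists of its cell types, were in part in the table. It lists 1428 genes of the 19985 behind the authors' adjustment, and the counts from these short lists are given beside that share without a test. Of 18 follicular helper T cell and germinal centre genes, 3 were listed, with 0 at an adjusted p below 0.05. Cd40, the costimulatory receptor of B cells and other antigen-presenting cells, was lower, at 30.3 ± 14.6 in KO and 77.6 ± 22.9 in WT (SD, n = 4 each). Ascl2, which marks both follicular helper T cells and intestinal stem cells, was also lower, at 767 ± 92.3 in KO and 1060.3 ± 151 in WT.

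Of 24 genes of chemokine guidance and follicle organisation, 3 were listed, all higher and 0 past the adjusted threshold, and Ccr7, Ccl19, Ltb and Lta were not among them. Tnfsf13b, the B cell survival factor BAFF, stood at 146 ± 14.3 in KO and 89.3 ± 40.2 in WT (SD, n = 4 each). Map3k14, the kinase NIK of the lymphotoxin pathway, stood at 245 ± 30.9 in KO and 189 ± 16.4 in WT. Of 10 follicular dendritic cell and stroma genes, 2 were listed, both higher and 0 past the adjusted threshold. Cr2, a complement receptor of B cells and follicular dendritic cells, read 4.82, 120.02, 17.8 and 117 in KO replicates 1 to 4, against 4.86, 0, 4.05 and 21.2 in WT replicates 1 to 4. Enpp2, which makes lysophosphatidic acid, had 166 ± 242 in KO, against 46.6 ± 25.5 in WT, and its KO mean was 45.4 without KO replicate 4.

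Of 9 genes of the epithelium over follicles, 2 were listed, 1 higher and 1 lower, with 0 past the adjusted threshold. Spib, a transcription factor of both B cells and M cells, stood at 154 ± 203 in KO and 32.6 ± 24.2 in WT (SD, n = 4 each). The Spib KO mean without KO replicate 4 was 54.8. Tnfaip2 stood at 355 ± 102 in KO and 633 ± 109 in WT. Of 14 further MHC class II genes and regulators, 2 were listed, both higher and 0 past the adjusted threshold. These were H2-Eb2, described above, and Rfxank, a subunit of the factor that binds the X box, at 443 ± 84.9 in KO and 308 ± 83.5 in WT. The classical chains, Cd74, the H2-DM chains that H2-O restrains and the class II transactivator Ciita were not among the listed genes.

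Of 10 genes of IgM and IgA binding and transport, 6 were listed, all higher and 0 past the adjusted threshold. Fcrl5, an Fc receptor-like protein of B cells, read 3.86, 4.29, 10.7 and 30.3 normalized counts in KO replicates 1 to 4 and was at 0 in the 4 WT libraries. Ighm, the IgM heavy chain that Fcmr binds, stood at 298 ± 339 in KO and 54.5 ± 25.4 in WT (SD, n = 4 each), and its KO mean was 2.42 times the WT mean without KO replicate 4. Fcrla stood at 26.8 ± 21.0 in KO and 5.19 ± 4.98 in WT, while Fcrl1 at 30.1 ± 22.0 in KO and 9.26 ± 5.03 in WT.

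Markers of other cells gave these values beside the 6 genes. Of 18 T cell identity genes, 3 were listed, all higher and 0 past the adjusted threshold. Trbc1, which encodes a constant region of the T cell receptor and shares near-identical sequence with Trbc2, read 77.1, 107, 97.0 and 60.7 normalized counts in KO replicates 1 to 4, against 44.7, 59.6, 44.5 and 52.6 in WT replicates 1 to 4. KO replicate 4 was thus the lowest KO library in Trbc1, but the highest of the 8 libraries in Cd4, at 88.1, and in Cd8b1, at 10.8. Cd4 had 49.3 ± 26.1 in KO and 19.6 ± 4.87 in WT (SD, n = 4 each), and Cd8b1 at 5.77 ± 5.25 in KO and 0.253 ± 0.506 in WT. Of 15 plasma cell genes, 2 were listed, both higher, with Ighg2b past the adjusted threshold. Ighg2b had 352 ± 128 in KO, against 112 ± 43.0 in WT, and Irf4 at 66.4 ± 20.4 in KO and 25.8 ± 5.87 in WT.

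Of 16 macrophage and dendritic cell genes, Fscn1 alone was listed, lower, at 428 ± 233 normalized counts in KO and 857 ± 364 in WT (SD, n = 4 each). Of 20 colon epithelium genes, 3 were listed, all higher and 0 past the adjusted threshold. Cdhr5 read 7846, 8335, 7873 and 18826 in KO replicates 1 to 4, against 6191, 6827, 6288 and 5470 in WT replicates 1 to 4. Lgals4 had 44476 ± 17412 in KO, against 26544 ± 8759 in WT, and Cdhr2 at 7707 ± 5058 in KO and 4385 ± 513 in WT. These colon epithelial markers were present at high counts in all 8 libraries, and KO replicate 4 was the highest library in the 3 epithelial genes too. The part of that library's tissue makeup in the levels of the 6 genes was not tested.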

How the data were processed

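Colon tumour RNA was extracted with TRIzol and made into strand-marking NEBNext libraries, per the labels' protocols. HISAT2 and DESeq2 are named without versions in the submitters' processing notes. The same notes name the human build GRCh38, whereas the gene identifiers belong to the mouse C57BL/6NJ annotation. The sources used here do not state whether counting used strand.

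The authors deposited a normalized signal (counts divided by size factors) per library, a log2 fold change, a p-value and an adjusted p-value for 1428 genes, all with p below 0.05. Each library's values were whole multiples of one step (100% within 0.001), so whole reads were recovered. The authors' adjustment implied 19985 genes. Because the table is selected, the deposited DESeq2 values are described, and refits in R 4.3.3 with limma 3.58.1, DESeq2 1.42.0 and the quasi-likelihood test of edgeR 4.0.16, adjusted over 19985 genes by the Benjamini-Hochberg method, serve as alternatives. Their spread comes from selected genes. Simulated counts with known changes were used to check the edgeR refit.

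Groups and replicate numbers came from the sample titles. Replicates differed beyond counting noise (chi-square per degree of freedom at least 19.8), so none were merged. Over the listed genes this value was 193 to 267 between KO replicate 4 and the other KO libraries, and 19.8 to 25.4 among those others. Between WT libraries it was 24.7 to 94.2. Members, gene lists, motifs and the rule for named genes were chosen with earlier results of these data known. Besides the 6 genes, the rule names the 8 nearest profiles, the gene nearest to each member and up to 4 members of each of 12 lists. Protein sequences were not used here. Some genes that the rule covers are not reported here. Python 3.11.15 with numpy 2.4.6 and pandas 2.3.3 was used for the other steps.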

Additional observations from a re-analysis of the deposited data

Results flagged for a closer look

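One value passed the rule used for standing far from the others of its group. H2-Ob in KO replicate 4, at 283 normalized counts, lay so far above the nearest KO library, at 54.7, that the gap, as a share of the range of the 4 KO values, just passed Dixon's critical value. It was 1 of 26 groups of 4 libraries examined, and chance alone flags about 1 group in 20 if values are normally distributed, which was not checked. KO replicate 4 was the highest library in 6 of 6 genes, so standing highest is not particular to H2-Ob. The cause was not tested.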

How the results depend on the processing

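All 89 refits of the 6 genes kept a positive log2 fold change, and 0 of 6 passed the adjusted threshold in any of them. Of all listed genes, 37 passed in the DESeq2 refit and 0 in the edgeR and limma refits. The refits ran from 0.65, Cxcl13 without KO replicate 4, to 5.21, Fcmr without WT replicate 4. Without KO replicate 4 the median log2 fold change over the 6 genes was 1.66. The count of genes with separate groups, 0, became 0 to 1 when 1 library was left out. The KO over WT ratio of H2-Oa ran from 8.72 to 47.4 in the same way. Per B cell list, with 1 library left out (chosen after seeing the data), the ratio ran from 0.343 to 0.5575 for Cxcl13 and from 1.51 to 6.65 for H2-Oa. With a geometric mean of the list it was 0.32 for Cxcl13 and 0.598 for Btla. The direction per B cell list turned for H2-Ob, from 1.06 to 0.810 with the geometric mean and 0.852 to 0.939 without KO replicate 4, WT replicate 1 or WT replicate 3, and for Btla, from 0.796 to 1.09 without WT replicate 2. Of the 8 nearest profiles, 5 stayed with a mean of at least 20 and 6 with a pseudocount of 0.1. The causes were not tested. With the filter at a mean of 10, H2-Oa could not be fitted. The replicate numbers share no stated origin. Deviations of same-numbered libraries correlated between -0.238 and 0.054, and 0 of 4 KO libraries correlated best with their own number. An edgeR refit with the replicate number as a block gave log2 fold changes of 0.89 to 3.57, with 2 of 6 at an unadjusted p below 0.05, against 5 without the block. With 0 to 6 reads in each WT library for Fcmr, Cxcr5 and H2-Oa, their ratios carry large counting error.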
